A study of Mus musculus with 8 samples.

Results

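Integrins are cell surface receptors built from one alpha and one beta subunit, and T cells use them to hold on to blood vessel walls, matrix and other cells. A list of 10 integrin subunit genes was followed here in CD4+CD25+ T cells of mouse pregnancy: Itgae, Itgb7, Itgb8, Itgb2, Itgb3, Itga1, Itga2, Itga2b, Itga3 and Itga5. They were taken from the deposited value table wherever the array annotation gave a probe set that single gene symbol. This found 8 of the 10 among the 6986 genes of the table, each with 1 probe set, while Itgb7 and Itga5 were not analysed here.

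RNA came from CD4+CD25+ lymphocytes, the fraction rich in regulatory T cells (Treg), purified by flow cytometry at day 9.5 post coitus from para-aortic nodes, into which the uterus drains. The 4 arrays labelled IL10-/- came from mutant mice without functional interleukin 10 that had been back-crossed through the C57BL/6 colony and drank oxytetracycline at 2 mg/ml against colitis. The 4 arrays labelled IL10+/+ came from C57BL/6 mice, for which no antibiotic is stated, so genotype and antibiotic cannot be told apart. Each array held RNA pooled from 2 to 4 mice, so the spread between arrays is one between pools and not between single animals.

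Some integrin subunits are used as marks of a cell type, though other cells can carry them too. Itgb2 encodes the beta chain of the leukocyte integrins, Itgae the alpha chain of CD103, which binds E-cadherin and marks a subset of Treg, and Itgb8 the beta chain of an integrin that Treg use to release active TGF-beta. Itga2b encodes the platelet integrin chain CD41, and Itgb3 its beta partner, which other cells also pair with the alpha V chain. Itga1 and Itga2 encode alpha chains of collagen receptors, and Itga2 (CD49b) is in wide use as a marker of natural killer cells. Itga3 encodes the alpha chain of a laminin receptor best known from epithelia.

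Signal is given as the deposited log2 array value, where a difference of 1 is a doubling of signal. Between the 8 arrays the median over genes ran from 6.97 to 7.12, and Pearson's r across genes, which are not independent replicates, from 0.974 to 0.993. IL10-/- replicate 2 and IL10+/+ replicate 4 stood apart, with scores of 16.6 and 17.8 on the first principal component against -13.3 to -2.72 in the other 6 arrays. Their interquartile ranges over genes were 2.15 and 2.17, against 2.32 to 2.58 in the others, and each subunit's difference is therefore also given without these 2 arrays. Il10 itself averaged 9.17 ± 0.35 under the label IL10-/- and 8.10 ± 0.43 under the label IL10+/+ (SD, n = 4 each), and did not pass the test described below (limma, adjusted p = 0.405). Which part of the gene was mutated is not stated in the labels, and this reading checks no label. The T cell and Treg genes that were measured were bright, with Ptprc (CD45) at 12.61 ± 0.09 in IL10-/- and 12.70 ± 0.05 in IL10+/+ arrays and Ctla4 at 11.22 ± 0.23 and 11.32 ± 0.15 (SD, n = 4 each). Cd4 and Il2ra, the genes of the surface markers sorted on, and the Treg gene Foxp3 were not analysed here.

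The table has no detection call, so the signal of 226 olfactory receptor genes, which are not known as lymphocyte genes, was taken to show how bright a probe set of an unexpressed gene can be. Their means over the 8 arrays ran from 2.53 to 8.35, with a median of 5.04 and a 95th percentile of 7.06. Itgb2, Itgae and Itgb8 lay above the brightest olfactory receptor in all 8 arrays, with means of 10.48, 9.69 and 8.77. Itgb3 lay above 99.6% of the receptor genes on average (mean 8.25), and above every one of them in 2 arrays. Itga2 (7.58) and Itga2b (7.14) lay above 96.5% and 95.1% of them, Itga3 (6.56) above 89.8% and Itga1 (6.34) above 85.4%. Probe sets differ in brightness for the same amount of RNA, so this places each signal against unexpressed genes and gives no order of the subunits in the cells. For Itga1, Itga3, Itga2b and Itga2, a transcript in these cells is therefore not shown by these arrays. For Itgb3, whose mean lay under that of the brightest receptor, the arrays do not settle it.

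**Figure D1:**
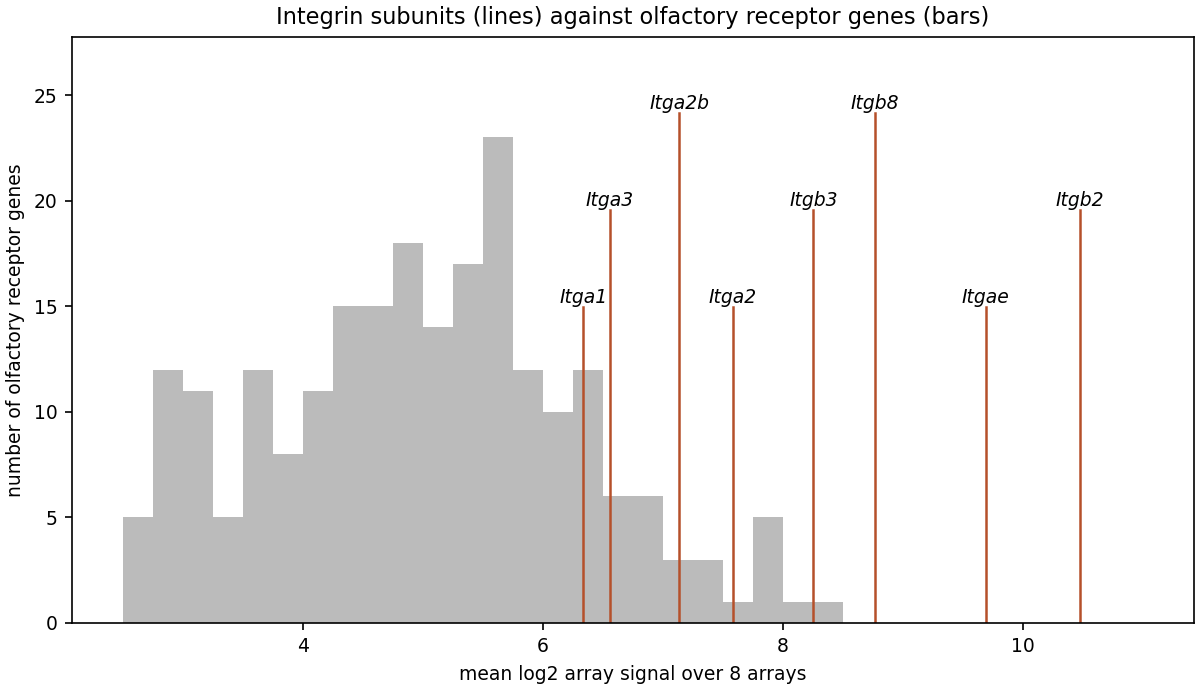
Mean log2 array signal over 8 arrays (x axis) of 226 olfactory receptor genes (grey bars, number of genes on the y axis) and of 8 integrin subunits (vertical lines, whose height carries no value). Itgb8, Itgae and Itgb2 lie to the right of the brightest receptor gene at 8.35, and the other 5 subunits lie within the receptors' range.

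The question put to the subunits was whether their signal in this T cell fraction differed without interleukin 10. None of the 8 did by the test used: 0 passed limma's test at an adjusted p of 0.05, where 0.0286% of all genes passed in either direction (2 of 6986, Ctse and Efcab2). Every one of the 8 had an adjusted p of 0.999, and 0 had an unadjusted p under 0.05, against 4.78% of all genes. The groups overlapped for all 8, and they were free of overlap for 2.92% of all genes. Positive differences were found for 4 subunits and negative ones for the other 4 (IL10-/- minus IL10+/+), with a median of 0.0056 beside 0.0025 over all genes. The sizes were also ordinary, with a median absolute difference of 0.11 for the subunits and 0.087 for all genes. The 95% intervals of the 8 differences reached from -0.67 to 0.53, so IL10-/- signals under 0.628-fold or over 1.44-fold of IL10+/+ lay outside every one of them. The ends of that span belong to Itgb2 and Itga2, and the intervals of the other subunits, given with each, lie inside it. In whole tissue or sorted pools, fewer cells of a type and less RNA per cell cannot be told apart, and this holds for each value that follows.

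**Figure D2:**
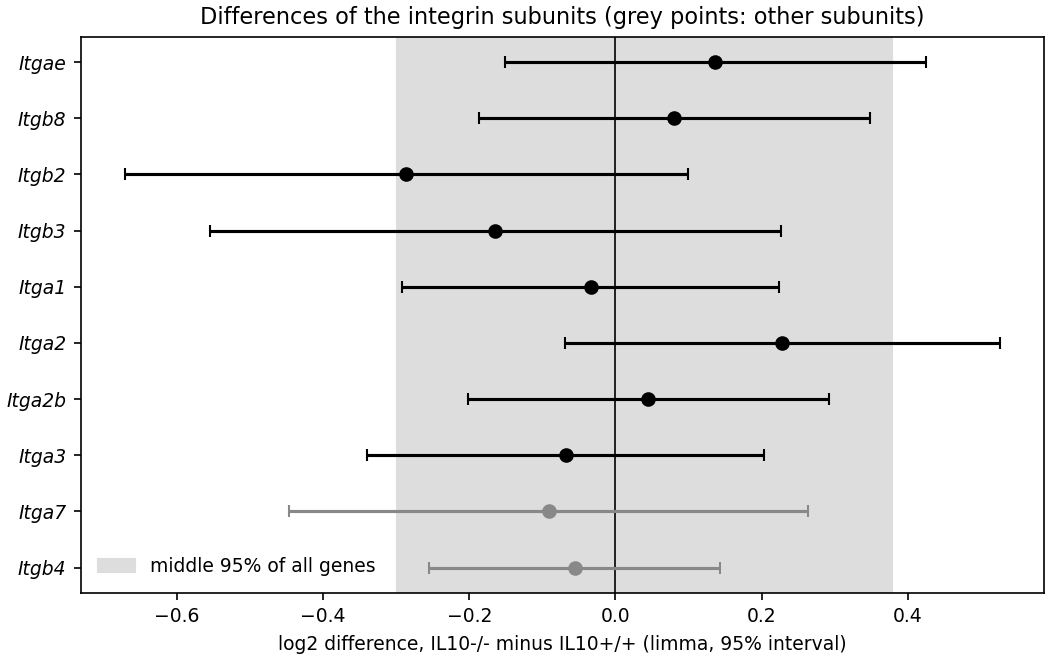
Log2 difference, IL10-/- minus IL10+/+ (x axis), of 8 integrin subunits (black) and of Itga7 and Itgb4 (grey points), with limma's 95% interval as bars; the shaded band holds the middle 95% of all 6986 genes, from -0.30 to 0.38. All 10 intervals cross 0, and all 10 differences lie within the band.

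Itgae, the CD103 chain, read 9.88, 9.47, 9.75 and 9.94 in IL10-/- replicates 1 to 4, against 9.50, 9.85, 9.63 and 9.51 in IL10+/+ replicates 1 to 4. IL10-/- replicate 2 was the lowest of all 8 arrays, and the other 3 IL10-/- arrays shared the upper end with IL10+/+ replicate 2. The means were 9.76 ± 0.21 in IL10-/- and 9.62 ± 0.16 in IL10+/+ (SD, n = 4 each), a difference of 0.14 (SE 0.13, 95% interval -0.15 to 0.42; limma, adjusted p = 0.999). Without IL10-/- replicate 2 the difference was 0.23 (adjusted p = 0.974), and without both arrays that stood apart it was 0.20 (adjusted p = 0.903), so this subunit did not pass in either case. The interval with all 8 arrays reaches up to a signal of 1.34-fold in IL10-/- relative to IL10+/+.

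Itgb8, whose integrin frees TGF-beta from its latent form, read 8.86, 8.79, 8.54 and 9.05 in IL10-/- replicates 1 to 4, against 8.75, 8.71, 8.62 and 8.84 in IL10+/+ replicates 1 to 4. The highest and the lowest array were both IL10-/-, and the IL10+/+ arrays lay between them. The means were 8.81 ± 0.21 in IL10-/- and 8.73 ± 0.09 in IL10+/+ (SD, n = 4 each), a difference of 0.08 (SE 0.12, 95% interval -0.19 to 0.35; limma, adjusted p = 0.999). With IL10-/- replicate 4 left out the difference was -0.00072, so its sign rests on that array. Without both arrays that stood apart it was 0.12 (adjusted p = 0.972).

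Itgb2, the beta chain shared by LFA-1 and the other leukocyte integrins, read 10.63, 9.76, 10.47 and 10.48 in IL10-/- replicates 1 to 4, against 10.68, 10.60, 10.75 and 10.45 in IL10+/+ replicates 1 to 4. One array, IL10-/- replicate 2, lay far below the other 7, which were within 10.45 and 10.75. The means were 10.34 ± 0.39 in IL10-/- and 10.62 ± 0.13 in IL10+/+ (SD, n = 4 each). The difference of -0.29 (SE 0.17, 95% interval -0.67 to 0.10; limma, adjusted p = 0.999) was the largest in size of the 8. Without IL10-/- replicate 2 it was -0.10 (SE 0.11, adjusted p = 0.997), and without both arrays that stood apart -0.15 (SE 0.10, adjusted p = 0.932).

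Of the subunits known from platelets, Itgb3 read 8.17, 8.03, 8.25 and 8.24 in IL10-/- replicates 1 to 4, against 8.29, 8.74, 8.51 and 7.80 in IL10+/+ replicates 1 to 4. The IL10-/- arrays were close together, over a 1.17-fold range, and the IL10+/+ arrays spread over 1.92-fold on both sides of them. The means were 8.17 ± 0.10 in IL10-/- and 8.34 ± 0.40 in IL10+/+ (SD, n = 4 each), a difference of -0.16 (SE 0.18, 95% interval -0.55 to 0.23; limma, adjusted p = 0.999). Its size moved with IL10+/+ replicates 2 and 4: the difference was -0.03 without IL10+/+ replicate 2 (adjusted p = 0.995) and -0.34 without IL10+/+ replicate 4 (adjusted p = 0.762). Without both arrays that stood apart it was -0.30, with a 95% interval from -0.59 to 0.00073 (limma, unadjusted p = 0.0505, adjusted p = 0.869).

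Its platelet partner Itga2b read 7.14, 7.21, 7.07 and 7.21 in IL10-/- replicates 1 to 4, against 6.98, 6.93, 7.25 and 7.30 in IL10+/+ replicates 1 to 4. The IL10-/- arrays all lay inside the IL10+/+ range. The means were 7.16 ± 0.07 in IL10-/- and 7.11 ± 0.19 in IL10+/+ (SD, n = 4 each), a difference of 0.05 (SE 0.11, 95% interval -0.20 to 0.29; limma, adjusted p = 0.999). The sign turned without IL10+/+ replicate 2, where the difference was -0.016, and it was 0.09 without both arrays that stood apart (adjusted p = 0.980).

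Itga2b and Itgb3 form 1 heterodimer, the only partner pair with both genes measured, so their signals were compared across the 8 arrays. Pearson's r was -0.65 (p = 0.0769) and Spearman's rho was -0.62 (p = 0.115), by exact two-sided permutation of the pairings. As 1 pair was tested, adjustment leaves these values as they are. The pair did not pass, and with the 2 arrays farthest from the median of Itga2b left out r was -0.35 (exact permutation p = 0.506, n = 6). Without both arrays that stood apart r was -0.39 (exact permutation p = 0.446, n = 6). Without IL10+/+ replicate 3 alone r was -0.88 (exact permutation p = 0.00337, n = 7), so 1 array decides that call. After the group means were removed r was -0.64 (exact permutation p = 0.0810). No marker of platelets or megakaryocytes was measured (0 of 13 genes of a list led by Pf4 and Gp9), so platelet RNA in the pools was not tested.

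Of the collagen receptor chains, Itga2 read 7.84, 7.80, 7.57 and 7.58 in IL10-/- replicates 1 to 4, against 7.22, 7.76, 7.58 and 7.33 in IL10+/+ replicates 1 to 4. The 2 highest arrays were IL10-/- and the 2 lowest IL10+/+, with the other 4 mixed between them. The means were 7.70 ± 0.14 in IL10-/- and 7.47 ± 0.24 in IL10+/+ (SD, n = 4 each). The difference of 0.23 (SE 0.13, 95% interval -0.07 to 0.53) had the smallest unadjusted p of the 8 subunits, 0.119, by limma (adjusted p = 0.999). It was 0.32 without IL10+/+ replicate 2 (adjusted p = 0.704) and 0.14 without IL10+/+ replicate 1 (adjusted p = 0.997). Without both arrays that stood apart it was 0.15 (adjusted p = 0.972).

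Itga1, whose gene lies next to Itga2 on chromosome 13, read 6.23, 6.47, 6.29 and 6.29 in IL10-/- replicates 1 to 4, against 6.15, 6.23, 6.51 and 6.53 in IL10+/+ replicates 1 to 4. The IL10-/- arrays all lay inside the IL10+/+ range, as for Itga2b. The means were 6.32 ± 0.10 in IL10-/- and 6.35 ± 0.19 in IL10+/+ (SD, n = 4 each), a difference of -0.03 (SE 0.12, 95% interval -0.29 to 0.22; limma, adjusted p = 0.999). The sign turned without IL10+/+ replicate 3 (0.017) or 4 (0.024), and the difference was -0.10 without IL10+/+ replicate 1. Without both arrays that stood apart it was -0.02 (adjusted p = 0.994). Across the 8 arrays Pearson's r between Itga1 and Itga2 was 0.0088, given as a description.

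Itga3, the laminin receptor chain, read 6.54, 6.68, 6.33 and 6.54 in IL10-/- replicates 1 to 4, against 6.86, 6.42, 6.56 and 6.52 in IL10+/+ replicates 1 to 4. IL10+/+ replicate 1 was the highest array and IL10-/- replicate 3 the lowest. The means were 6.52 ± 0.14 in IL10-/- and 6.59 ± 0.19 in IL10+/+ (SD, n = 4 each), a difference of -0.07 (SE 0.12, 95% interval -0.34 to 0.20; limma, adjusted p = 0.999). Without IL10+/+ replicate 1 it was 0.02, and without both arrays that stood apart it was -0.14 (adjusted p = 0.963).

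**Figure D3:**
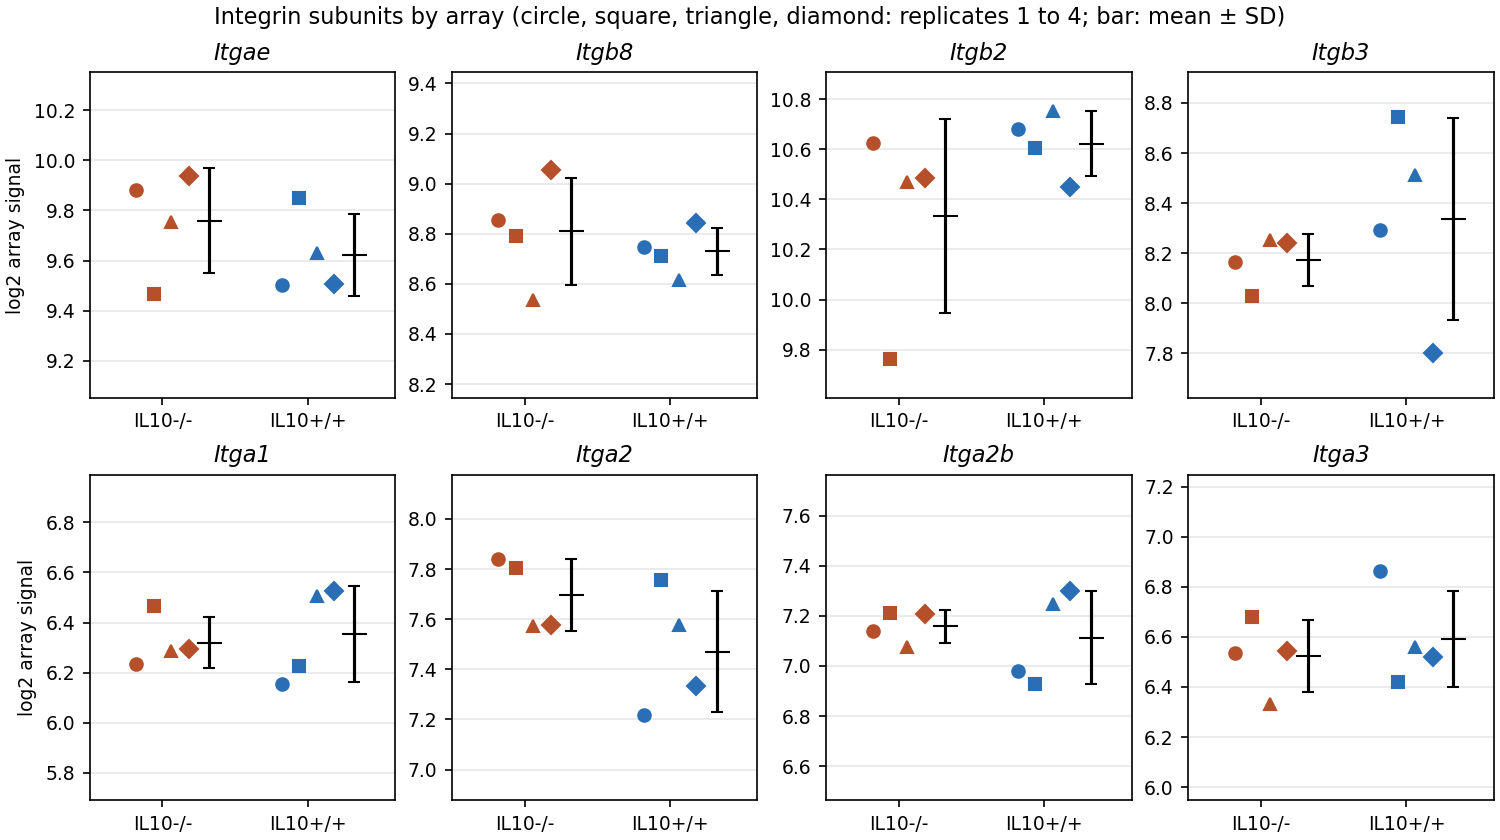
Log2 array signal (y axis, the same span of 1.3 in every panel) of 8 integrin subunits in the arrays labelled IL10-/- (left, orange) and IL10+/+ (right, blue), with the mean and SD of each group beside its points (n = 4 each). The 2 groups overlap in every panel; IL10-/- replicate 2 is the low square of Itgb2 at 9.76, and Itgb3 spreads from 7.80 to 8.74 in IL10+/+.

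The subunits differed in how much they varied between pools of 1 genotype. The pooled SD within groups was 0.29 for Itgb3 and for Itgb2, higher than in 84.7% and 83.9% of all genes, and 0.14 for Itga2b, higher than in 26.3%. The median gene had a pooled SD of 0.18. The 2 arrays that stood apart carried part of this spread. In IL10-/- replicate 2, Itgae, Itgb2 and Itgb3 had the lowest value of their group and Itga1, Itga2b and Itga3 the highest. In IL10+/+ replicate 4, Itgb2 and Itgb3 were the lowest of their group and Itgb8, Itga1 and Itga2b the highest. Itgb2 differed by -0.76 from the mean of the other IL10-/- arrays in replicate 2, and Itgb3 by -0.72 from the mean of the other IL10+/+ arrays in replicate 4. Sums of marker genes differed in IL10-/- replicate 2, where each sum mainly follows the brightest genes of its list. The summed linear signal of this array was the lowest of the 8 for the measured Treg identity genes (5048, against 6073 to 6605 in the other 7). It was also the lowest for T cell lineage genes (7428, against 7984 to 8738). Single genes did not all go with the sums. Themis read highest of the 8 arrays there (9.72), and Ikzf2 (11.25) lay above its value in IL10-/- replicate 3 (11.19). The sum was the highest of the 8 for B cell genes (1032, against 755 to 992), although Cd79b read higher in IL10-/- replicate 3 (9.07 against 8.81). Macrophage and monocyte genes (934, against 563 to 763) and epithelial genes (270, against 214 to 246) were also highest there. Among the former, Lyz2 read 8.20 against 6.70 to 7.27, but Lyz1 read higher in IL10+/+ replicate 1 (7.36 against 6.74). The 3 epithelial genes all lay below the 95th percentile of the olfactory receptors, and Krt19 read higher in IL10+/+ replicate 3 (6.25 against 5.91). Fcgr3, the 1 measured gene of the list for natural killer and CD8 T cells, also read highest in IL10-/- replicate 2 (7.23, against 6.98 to 7.14). It is on the macrophage and monocyte list too and is counted in that sum, so it is no separate observation. This array had the highest median (7.12) and the smallest interquartile range (2.15) of the 8. In IL10+/+ replicate 4 the sums were 6464 for Treg identity and 8251 for T cell lineage genes. They were 767 for B cell and 650 for macrophage and monocyte genes, and none of these sums was the lowest or highest of the 8. The sum for integrin activators and adaptors was the lowest of the 8 in this array (19081, against 19207 to 20971). That for neutrophil genes was the highest (436, against 350 to 412), although Ly6g among them read lowest of the 8 there (4.21). The part of these cells, or of the array's narrower range, in the subunits' values was not tested.

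**Figure D4:**
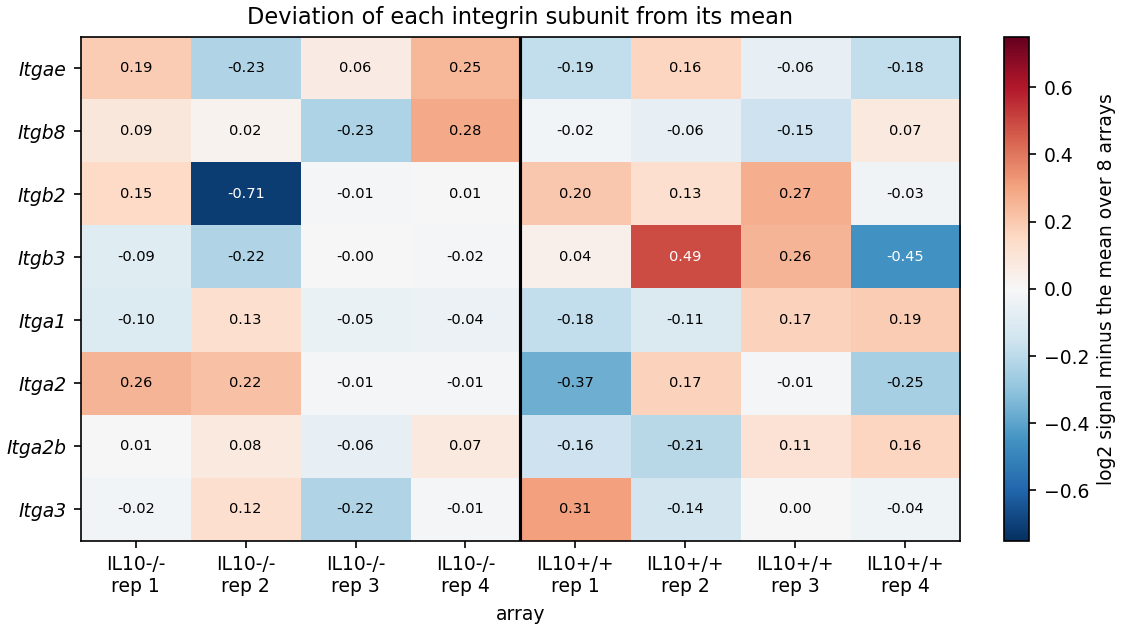
Deviation of each integrin subunit (rows) from its own mean over 8 arrays, in log2 units, in the 4 IL10-/- arrays (left of the line) and the 4 IL10+/+ arrays (right of it). The lowest cell is Itgb2 in IL10-/- replicate 2 at -0.71, and the highest is Itgb3 in IL10+/+ replicate 2 at 0.49.

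Across the 28 pairs of the 8 subunits, Pearson's r over the 8 arrays ran from -0.65 (Itgb3 and Itga2b) to 0.84 (Itga1 and Itga2b), with a median of -0.08. The pair with the highest r consists of subunits whose signal lay within the olfactory receptors' range and which were each highest of their own group in the array that stood apart. These values are descriptions over 8 arrays that share an amplification and a normalization.

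The genes whose signal followed each subunit most closely over the 8 arrays were picked by Pearson's r. Itgae was followed by Tomm40l, a mitochondrial import receptor homolog, by Itgb1bp1 and by Pikfyve, a lipid kinase of endosomes (r = 0.97, 0.96 and 0.95). Itgb1bp1 encodes ICAP-1, an adaptor that binds the tail of integrin beta 1, and it read 9.23 ± 0.33 in IL10-/- and 8.97 ± 0.20 in IL10+/+ arrays (SD, n = 4 each), with both genes lowest of their group in IL10-/- replicate 2. A dimmer probe set of Itgb1bp1, which averaged 6.84 in IL10-/- and 6.52 in IL10+/+ arrays, did not follow Itgae (r = -0.53), so this likeness rests on 1 of the 2 probe sets of the gene. Itgb8 was followed by the deubiquitinase gene Usp34 (0.95), then Rnase12 (0.92) and Fbp2 (0.91). Itgb2 was followed by the transcriptional repressor gene Mnt, the RNA-decay factor gene Zfp36l1 and Dgka, a diacylglycerol kinase of T cells (0.99, 0.98 and 0.98). Without the 2 arrays that stood apart these last 3 values were 0.92, 0.98 and 0.89.

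Itga2 was followed by the chemokine gene Ccl3 (0.97), the mitotic spindle gene Nedd1 (0.96) and the small nucleolar RNA gene Snord49b (0.94). Ccl3 read 6.77 ± 0.32 in IL10-/- and 6.41 ± 0.40 in IL10+/+ arrays (SD, n = 4 each), a range in which olfactory receptor genes also lie. Itgb3 was followed by BC005537, Plekhb2 and Mif4gd (0.97, 0.96 and 0.95). Itga2b was followed by Sox17, Rhbdf1 and Htr1a (0.98, 0.97 and 0.97), Itga1 by Panx2, 2900092D14Rik and Sulf1 (0.99, 0.97 and 0.96), and Itga3 by Zfp692, Prl3d3 and Bptf (0.94, 0.93 and 0.93). Such values are common with 8 arrays and 6986 genes, since the median gene had a closest partner at r = 0.97. The closest partner of Itgb2 was closer than that of 97.8% of genes and the closest partner of Itga3 closer than that of 13.2%.

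The genes next to the subunits on their chromosomes were read from the RefSeq order of assembly GRCm38.p6. Haspin, a mitotic histone kinase, lies inside Itgae on chromosome 11, and it read 8.39 ± 0.08 in IL10-/- and 8.37 ± 0.13 in IL10+/+ arrays (SD, n = 4 each), with r = -0.05 to Itgae. Pelo, a ribosome rescue factor, lies inside Itga1, and it read 8.79 ± 0.06 in IL10-/- and 8.59 ± 0.15 in IL10+/+ arrays (SD, n = 4 each; difference 0.21, SE 0.10; limma, adjusted p = 0.999). Pelo had r = 0.33 to Itga1; both are descriptions over 8 arrays. None of the other measured neighbours passed limma's test, and the smallest adjusted p among them was 0.873, for Myl4 beside Itgb3.

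The wider integrin system was read from lists of subunits, activators and adaptors, ligands, and genes that release or transmit TGF-beta. Of 26 integrin subunit genes, 10 were measured, the 8 above and Itga7 and Itgb4. Itga7, a laminin receptor chain of muscle, read 6.90 ± 0.23 in IL10-/- and 6.99 ± 0.29 in IL10+/+ arrays, and Itgb4, a chain of epithelial hemidesmosomes, read 7.15 ± 0.05 in IL10-/- and 7.21 ± 0.07 in IL10+/+ arrays (SD, n = 4 each). Neither passed limma's test (adjusted p = 0.999 for both), and the 10 subunits had a median difference of -0.04.

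The activators and adaptors couple the cell interior to integrins. Of 41 such genes 18 were measured and 14 of these lay above the brightest olfactory receptor, among them the small GTPase gene Rap1b, which switches integrins on, at 12.11 ± 0.06 in IL10-/- and 12.07 ± 0.12 in IL10+/+ arrays (SD, n = 4 each). In limma's test 0 rose and 0 fell, and 0 had an unadjusted p under 0.05, with 11 positive and 7 negative differences and a median of 0.03. The members of smallest p were Itgb1bp1 (0.26, SE 0.17) and Cyth1 (-0.24, SE 0.16), an exchange factor that binds the Itgb2 chain, both with adjusted p = 0.999. Cyth1 read 8.27, 8.04, 8.50 and 8.42 in IL10-/- replicates 1 to 4, against 8.65, 8.77, 8.69 and 8.08 in IL10+/+ replicates 1 to 4. IL10+/+ replicate 4, one of the arrays that stood apart, was the low array of its group for this gene.

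Ligands were read in the same cells although most are made by vessel wall, stroma or epithelium. Of 41 ligand genes 15 were measured, 10 of them below the 95th percentile of the olfactory receptors. In limma's test 0 rose and 0 fell, and 0 had an unadjusted p under 0.05, with 7 positive and 8 negative differences and a median of -0.0074. The laminin chain genes Lamb1 (0.16, SE 0.10) and Lama2 (-0.14, SE 0.10) had the smallest p (adjusted p = 0.999 for both).

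Of 23 TGF-beta genes 5 were measured, and Tgfb1, Lrrc32 and the receptor genes Tgfbr1 and Tgfbr2 were not analysed here. None of the 5 passed limma's test and 1 had an unadjusted p under 0.05 (4.78% of all genes), with 2 positive and 3 negative differences and a median of -0.016. Tgfbrap1, which encodes a TGF-beta receptor associated protein, was the 1 gene of the activator, ligand and TGF-beta lists (38 measured) whose groups did not overlap, against 2.92% of all genes in either direction. It read 8.24, 7.88, 7.99 and 8.15 in IL10-/- replicates 1 to 4, against 8.35, 8.35, 8.41 and 8.39 in IL10+/+ replicates 1 to 4. The difference was -0.31 (SE 0.10; limma, unadjusted p = 0.0126, adjusted p = 0.777), and 1.09% of all genes were, like it, lower in IL10-/- without overlap. Smurf2, a ubiquitin ligase that turns the pathway down, had a difference of -0.14 (SE 0.10, adjusted p = 0.999).

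**Figure D5:**
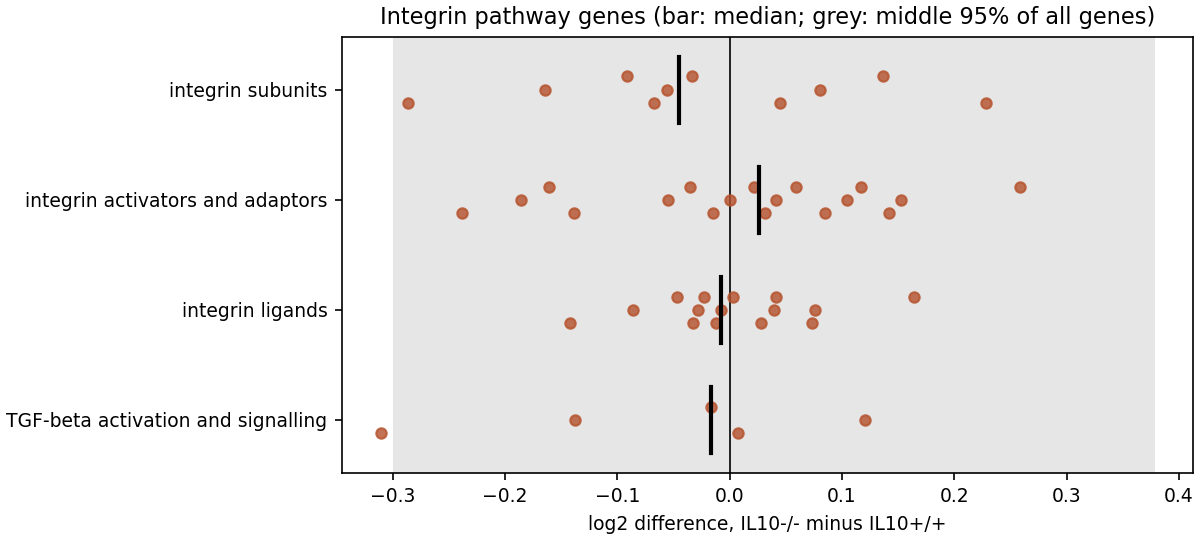
Log2 difference, IL10-/- minus IL10+/+ (x axis), of each measured gene of 4 lists of the integrin system (points, with vertical offsets only to keep them apart), the median of each list (black bar) and the middle 95% of all genes (grey band, -0.30 to 0.38). The 4 medians lie between -0.04 and 0.03, and Tgfbrap1 at -0.31 is the only point outside the band.

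Markers of cells that a CD4+CD25+ sort can carry over were read beside the subunits known from those cells, and 0 of the measured markers passed limma's test, with Krt18 alone at an unadjusted p under 0.05. For natural killer and CD8 T cells, beside Itga2, 1 of 11 genes was measured: Fcgr3 read 7.14 ± 0.07 in IL10-/- and 7.06 ± 0.06 in IL10+/+ arrays (SD, n = 4 each). Fcgr3 is also on the macrophage and monocyte list, and it lay above 95.1% of the olfactory receptor genes. The defining genes Ncr1, Klrb1c and Cd8a were not analysed here, and the part of such cells in the Itga2 signal was not tested. For epithelium, beside Itga3, 3 of 8 genes were measured, all below the 95th percentile of the olfactory receptors. The sum of their linear signals ran from 221 to 270 in IL10-/- and from 214 to 246 in IL10+/+ arrays. Krt18 among them read higher in IL10-/- without overlap (6.70 ± 0.14 in IL10-/- and 6.40 ± 0.12 in IL10+/+, SD, n = 4 each; adjusted p = 0.866), where 1.83% of all genes did so. Krt19 differed by -0.17 and Krt14 by 0.06, so 2 of the 3 epithelial genes had a positive difference. For stroma and endothelium, beside Itga1, 6 of 14 genes were measured with sums from 1189 to 1382 in IL10-/- and from 1232 to 1462 in IL10+/+ arrays. Of these 6, 5 lay below that 95th percentile. The sums come mostly from the 1 bright gene, Pecam1 (9.84 ± 0.11 in IL10-/- and 9.94 ± 0.15 in IL10+/+, SD, n = 4 each), and say little of the 5 dim ones. All 6 differences were negative with a median of -0.09.

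Mast cells also carry several integrins, and 1 of their marker genes, Mcpt4, varied widely between pools. Of 8 mast cell and basophil genes 3 were measured, and the protease gene Mcpt4 read 7.49, 9.70, 9.28 and 7.17 in IL10-/- replicates 1 to 4, against 10.08, 8.07, 8.86 and 9.30 in IL10+/+ replicates 1 to 4. The other 2, Mcpt8 and Fcer1a, lay below the 95th percentile of the olfactory receptors. The summed signal of the list, mostly that of Mcpt4, ran from 277 to 1015 in IL10-/- and from 418 to 1340 in IL10+/+ arrays. The part of mast cells in any subunit's signal was not tested. Macrophage and monocyte genes (4 of 10 measured) summed to 563 to 934 in IL10-/- and 650 to 763 in IL10+/+ arrays, with 2 positive and 2 negative differences and a median of 0.02. Its members Lyz1 and Lyz2 lay at -0.42 (SE 0.21) and 0.15. Neutrophil genes (4 of 9) summed to 350 to 412 in IL10-/- and 373 to 436 in IL10+/+ arrays, with Cxcr2 at -0.19 and Mpo at -0.08. The dendritic cell gene Batf3 (1 of 7 measured) differed by 0.28. B cell genes (5 of 10 measured) summed to 818 to 1032 in IL10-/- and 755 to 928 in IL10+/+ arrays, with all 5 differences positive and Cd79b at 0.27 (SE 0.14). Of these 5, 3 lay below the 95th percentile of the olfactory receptors. Among those 3, Cr2 and Ebf1 read highest in IL10-/- replicate 2, an array that stood apart. Cr2 read 7.08 there against 5.82 to 6.35 in the other arrays, and Ebf1 read 6.92 against 6.18 to 6.41. Of the lists for the sorted cells, Treg identity genes (4 of 12) summed to 5048 to 6369 in IL10-/- and 6230 to 6605 in IL10+/+ arrays, with Ikzf2 at -0.19 and Socs2 at 0.56 (-0.05 by its dimmer probe set). T cell lineage genes (3 of 14) summed to 7428 to 8425 in IL10-/- and 8201 to 8738 in IL10+/+ arrays, with Themis at 0.21 and Ptprc at -0.09.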

How the data were processed

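The deposited log2 values were made by the authors from Affymetrix Mouse Gene 2.0 ST arrays in Partek, by RMA with correction for GC content and the mean over the probes of a set, per the labels and the series' design text. Affymetrix Expression Console is also named in the submitters' processing notes. No source used here gives program versions or the genome build, and coordinates are therefore left out. Of 16378 probe sets, 7358 had 1 gene symbol, 456 several and 8564 none; 7310 matched a RefSeq gene of GRCm38.p6 by Entrez identifier. The brightest probe set per gene was kept, leaving 6986 genes.

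All genes were fitted with limma 3.58.1 (lmFit and eBayes) in R 4.3.3 over the 8 arrays, without covariates. Benjamini-Hochberg adjustment was made over all genes at 0.05. The fit was also run on simulated data with independent noise and differences larger than those of the subunits. That run says nothing of differences as small as theirs. The number of arrays limits the precision. The labels give both groups replicate numbers 1 to 4, but the deviations of same-numbered arrays correlated between -0.32 and 0.05, so the numbers were not taken as pairs. Named were all subunits, other measured subunits and the 3 genes closest to each subunit. So were the called genes of each list or else its 2 of smallest p. Ctla4, Rap1b, Lyz2, Pecam1, Krt14, Mcpt8, Cr2, Ebf1, Ly6g and the neighbouring genes were outside this rule and were added after their values were seen. The subunits and gene lists were chosen with earlier results of these data known. The 15 lists named 241 genes, 79 of them measured. The alternatives were other normalizations, probe set rules, variance settings, a filter on dim genes, a replicate block and left-out arrays.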

Additional observations from a re-analysis of the deposited data

Results flagged for a closer look

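By Dixon's 95% criterion for a wide gap between 1 array and the other 3 of its group, 0 of the 16 groups of the subunits were marked. Itgb2 came near it in IL10-/- replicate 2, at 9.76 against 10.47 to 10.63. The criterion marked 6 of 112 groups (5.36%) among the 56 genes named by rule. Chance gives about 1 in 20 for independent groups. These genes were partly picked from the same values and follow one another, so the 2 shares cannot be set against each other. In IL10-/- replicate 2, Mnt read 7.32 against 8.11 to 8.18 in the other 3 arrays, and Zfp36l1 read 9.68 against 10.83 to 11.01. These 2 genes were picked for their closeness to Itgb2, which was lowest in that array. Their low values there come with that choice and are no separate observation. In IL10-/- replicate 3, Socs2 read 9.03 against 8.35 to 8.44. In IL10+/+ replicate 4, Cyth1 read 8.08 against 8.65 to 8.77 and Mpo read 6.84 against 6.59 to 6.63. In IL10+/+ replicate 2, Tomm40l read 8.34 against 8.04 to 8.07.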

How the results depend on the processing

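Over 17 alternatives, 134 values of the 8 subunits were recomputed: 0 passed the threshold, the smallest adjusted p was 0.704, and 129 kept their direction. The 5 that turned came from leaving out 1 array. With each array left out in turn, the log2 difference ranged from -0.10 to 0.024 for Itga1, -0.13 to 0.023 for Itga3, -0.016 to 0.11 for Itga2b, -0.00072 to 0.17 for Itgb8, 0.077 to 0.23 for Itgae, 0.14 to 0.32 for Itga2, -0.38 to -0.096 for Itgb2 and -0.34 to -0.029 for Itgb3. The correlation of Itga2b and Itgb3 ranged from -0.88 to -0.38. The number of genes called, 2 in the fit reported, was 1 with median centring, array weights, the equal-variance test, the replicate block or without both arrays that stood apart, 3 with trend and robust settings (Ctse, Efcab2 and Hesx1), and from 1 to 4 with each array left out (4 without IL10-/- replicate 3, 2 without IL10-/- replicate 4, 1 in the other cases). The cause was not tested. The replicate block changed no call of a subunit; no IL10-/- array correlated best with the IL10+/+ array of its number. Itga1 and Itga3 have no value under the filter on dim genes, Itgb7 and Itga5 none at all, and the correlation none under settings of the model alone. The dim signal of Itga1, Itga3, Itga2b and Itga2, and 4 pools a group, limit what their differences can show.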
